A study of Homo sapiens with 10 samples.

Results

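The comparison concerned the CTCF peaks, called on reads mapped to the unmasked genome (hg38), that differed between HEK293T cells with knockdown of CGGBP1 (KD) and cells with a non-targeting control shRNA (CT). A CT peak was counted as lost when no KD peak overlapped it by at least 1 bp, a KD peak was counted as gained when no CT peak overlapped it, and the others were counted as shared. On chromosomes 1 to 22 and X, CT had 41692 peaks, of which 20937 were lost and 20755 shared, and KD had 46035 peaks, of which 25286 were gained and 20749 shared. There were 1.21 gained peaks per lost peak, with a counting interval of 1.19 to 1.23. These 87727 peaks were part of 384010 peaks in all lists read. The excess of gained peaks restates the difference in length of the lists, as the shared counts nearly match. Lists of equal length must give nearly equal numbers, so the 14030 gained and 14026 lost among the widest 20000 peaks of each list say nothing further. Among peaks with no repeated base, 17373 were gained and 9417 lost. The study states that the best alignment of a read was kept and that reads without a unique place were removed, which could not be checked on the lists, so peaks in repeats and in near-identical genes are less certain in position than others.

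HEK293T, a line derived from human embryonic kidney, was transduced with lentiviruses that carried either the non-targeting shRNA or shRNAs against 4 regions of the CGGBP1 reading frame, followed by 7 days of selection with puromycin at 10 µg/ml. CTCF-bound DNA was precipitated with a pair of CTCF antibodies and sequenced as single-end reads on an Ion Torrent S5 instrument, with 1 library per condition. A peak list does not show the level of CGGBP1 or CTCF, so the knockdown could not be checked here. The study also holds CTCF peaks from cells that overexpress CGGBP1 (OE), histone mark peaks from CT and KD, and peaks of 1 input library whose cells of origin are not stated. Because each condition had 1 library, no difference below has a replicate check, and 95% intervals cover counting error over peaks only. A difference between the cells and a difference in depth, enrichment or peak calling between both libraries cannot be told apart.

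CTCF is a zinc finger protein that binds a long, GC-rich motif and, with the cohesin ring, sets the ends of chromatin loops, insulates promoters from enhancers and marks many promoters. CGGBP1 is a DNA-binding protein first known for binding CGG repeats, and it also occupies interspersed repeats such as Alu and LINE-1. In the clustered protocadherin genes, CTCF bound at the promoters of alternative first exons takes part in the choice of the promoter that a neuron uses.

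As examples of gained peaks with a strong CTCF site, the 3 gained promoter peaks with the best CTCF matrix score follow with the 20-base site in capitals, on the forward strand of hg38 and cut to 300 bases at most. They lay at chr6:138988238-138988537 at REPS1, which encodes an endocytic adaptor, at chr10:75100054-75100283 at SAMD8, which encodes a sphingolipid synthase, and at chr1:36099722-36100021 at COL8A2, which encodes a collagen chain. All 3 overlapped an OE peak and none held a repeated base, that is, a base within a 24-base word found at least 10 times in the genome.
REPS1, gained: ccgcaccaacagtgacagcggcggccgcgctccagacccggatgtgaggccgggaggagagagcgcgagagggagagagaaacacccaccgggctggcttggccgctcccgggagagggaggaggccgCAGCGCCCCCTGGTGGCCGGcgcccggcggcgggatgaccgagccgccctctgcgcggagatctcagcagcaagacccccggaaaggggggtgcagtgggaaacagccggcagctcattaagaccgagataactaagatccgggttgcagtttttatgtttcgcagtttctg
SAMD8, gained: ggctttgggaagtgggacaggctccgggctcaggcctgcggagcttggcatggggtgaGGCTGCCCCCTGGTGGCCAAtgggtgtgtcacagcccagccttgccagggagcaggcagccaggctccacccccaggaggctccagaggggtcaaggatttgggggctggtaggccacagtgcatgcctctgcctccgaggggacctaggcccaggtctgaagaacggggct
COL8A2, gained: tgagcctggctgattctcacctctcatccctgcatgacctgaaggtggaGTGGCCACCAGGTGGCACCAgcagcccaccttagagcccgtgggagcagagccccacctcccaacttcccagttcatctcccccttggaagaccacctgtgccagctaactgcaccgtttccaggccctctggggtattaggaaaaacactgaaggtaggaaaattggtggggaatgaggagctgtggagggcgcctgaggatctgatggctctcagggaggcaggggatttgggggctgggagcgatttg

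By the way they were chosen, all 3 sites hold the CTCF core, the 12-base pattern CCNNNAGNNGGC, searched on both strands, which 2.16% of 300-bp stretches of the genome hold. The core was found in 29.6% of gained and 10.7% of lost promoter peaks, so most promoter peaks of either kind lack the exact pattern. With 1 mismatch allowed, 63.7% of all gained, 32.1% of all lost and 79.7% of all shared CT peaks held it, for which no genome share was taken.

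Promoters were the gene feature in which gained and lost peaks differed most. Of gained peaks, 12.5% (12.1 to 12.9) had their centre within 1 kb of an annotated transcript start, against 6.83% (6.49 to 7.18) of lost peaks and 13.3% of shared CT peaks, while such windows cover 7.21% of the genome. The difference of 5.66 points had an interval of 5.13 to 6.20. In numbers, 3158 promoter peaks were gained and 1429 lost, or 2.21 gained per lost. Exons outside promoters followed with 1080 gained and 565 lost peaks, a ratio of 1.91. Introns held 11340 gained and 10370 lost peaks, a ratio of 1.09, and intergenic DNA held 9708 gained and 8573 lost peaks, a ratio of 1.13.

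**Figure D1:**
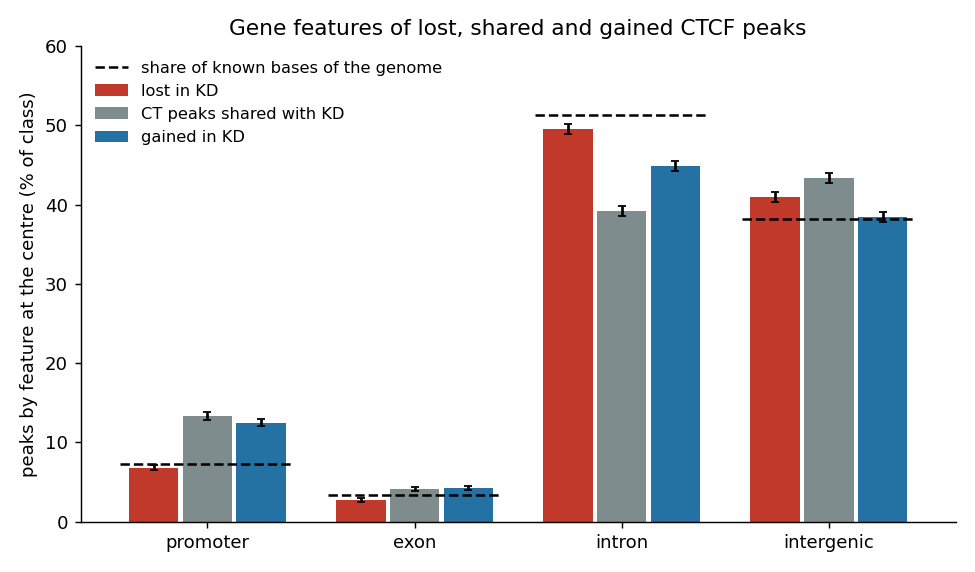
Share of lost, shared (CT) and gained CTCF peaks, in % of each class, by the gene feature at the peak centre. Bars show the share with its exact 95% interval, and dashed lines show the share of known bases of the genome in that feature. At promoters gained peaks (12.5%) lie near shared peaks (13.3%) and lost peaks (6.83%) lie just under the genome (7.21%).

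Lost peaks stood at 0.947 times the genome share in promoters, 0.817 times in exons, 0.965 times in introns and 1.07 times in intergenic DNA. Gained peaks stood at 1.73 times the genome share in promoters and 1.29 times in exons, close to the 1.85 and 1.25 times of shared CT peaks. The median distance to the nearest transcript start was 11.2 kb for gained, 17.4 kb for lost and 10.5 kb for shared CT peaks. Within 300 bp of a start lay 5.76% of gained and 2.56% of lost peaks. Starts of protein-coding genes had 8.51% of gained and 4.39% of lost peaks within 1 kb, and starts of lncRNA genes had 3.33% and 1.66%. Among peaks centred on exons, coding sequence took 22% of gained and 17.2% of lost peaks.

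H3K4me3, the histone mark of active promoters, was more often present at gained than at lost promoter peaks, and most often at shared CT ones. In CT cells 51.3% of gained promoter peaks overlapped an H3K4me3 peak, against 32.9% of lost promoter peaks, a difference of 18.4 points (15.4 to 21.4). Of shared CT promoter peaks 62.5% did. In KD cells the shares were 52.0% of gained, 32.9% of lost and 64.5% of shared CT promoter peaks. Away from promoters the same order held. In intergenic DNA 19.1% of gained, 5.55% of lost and 49.6% of shared CT peaks overlapped H3K4me3 in CT. H3K9me3 peaks of CT, a mark of heterochromatin, overlapped 2.82% of gained and 6.02% of lost peaks, and most often shared CT peaks, at 14.6%. The antibody given for H3K9me3 in the labels is the one that the methods give for H3K27me3, and the list is used here under the mark in its label.

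The clustered protocadherins, cell-surface adhesion proteins encoded in 3 tandem arrays on chromosome 5, gained far more peaks than they lost. The alpha, beta and gamma loci (chr5:140786136-141012347, chr5:141051374-141249365 and chr5:141330514-141512977) held 28 gained, 3 lost and 14 shared CT peaks for 53 genes. Of the gained peaks, 24 lay within 1 kb of a protocadherin start, and 22 of these lay within 110 bp of it. By gene, 24 of the 53 genes (45.3%) had a gained promoter peak and 2 (3.77%) a lost one, beside 11.0% and 4.70% of all 19970 protein-coding genes on these chromosomes. The genes overlap, so body counts of neighbouring protocadherins repeat the same peaks and each peak was counted once here. The OE list overlapped 18 of the 28 gained, all 3 lost and 9 of the 14 shared CT peaks.

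**Figure D2:**
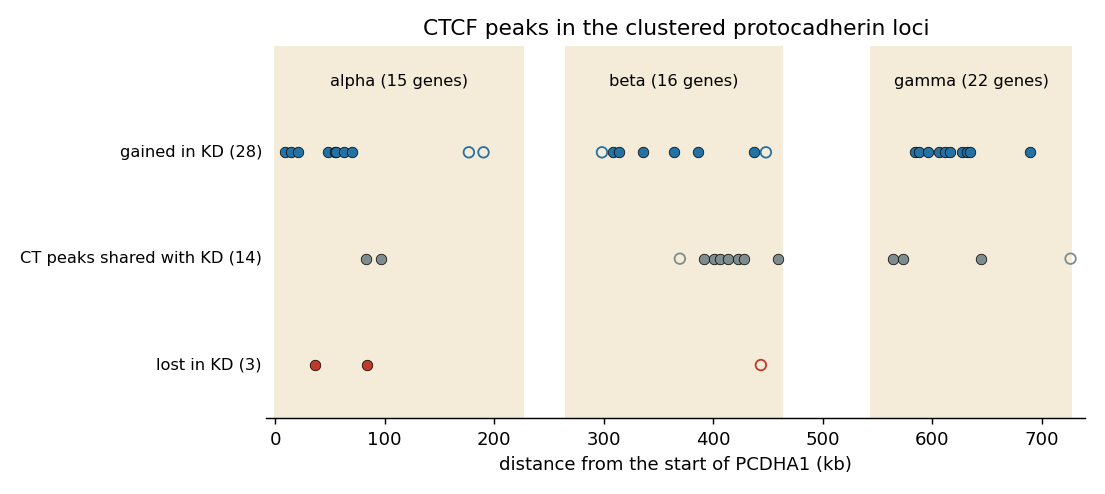
CTCF peaks in the alpha, beta and gamma protocadherin loci, plotted by distance in kb from the start of PCDHA1. Filled circles lie within 1 kb of a start of a protein-coding gene and open circles do not. The row of 28 gained peaks fills all 3 loci, the 14 shared CT peaks are mostly in the beta locus, and the 3 lost peaks are in the alpha and beta loci.

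The alpha locus had 10 gained, 2 lost and 2 shared CT peaks. Gained peaks sat at the starts of PCDHA2, PCDHA3, PCDHA4, PCDHA7, PCDHA8 and PCDHA10, where the best-scoring 20-base sites, printed 5′ to 3′ along the gene strand, resembled one another. Capitals mark the letters of a site that match one of the 7 fixed letters of the core.
PCDHA2, gained, chr5:140794782-140794801: ttagCCacatGatGtCgctg
PCDHA4, gained, chr5:140806980-140806999: ggagCCacatGatGtCgctc
PCDHA7, gained, chr5:140834173-140834192: atggCCacatGatGtCgctc
PCDHA8, gained, chr5:140841131-140841150: gaagCCacatGatGtCgctg
PCDHA10, gained, chr5:140855842-140855861: aaagCCaccgGatGtCgctg
Each of these matched 5 of the 7 fixed letters, so none counted as holding the core. Their matrix scores lay between −7.86 and −5.79. The matrix was built from exact core matches, so missing fixed letters lower a score by construction. These scores therefore do not judge the sites beyond the letter count, and each site is given as the best-scoring stretch of its peak. Inside the first exons, 623 bp after the start of PCDHA8 and 705 bp after that of PCDHA9, gained peaks held the full core. Those sites scored 17.5 and 19.9. The lost peak of the locus with a core lay 618 bp after the start of PCDHA5.
PCDHA8, gained, in the exon, chr5:140841774-140841793: gtttCCgctAGagGGCgcgt
PCDHA9, gained, in the exon, chr5:140848948-140848967: gtttCCactAGagGGCgcgt
PCDHA5, lost, in the exon, chr5:140822225-140822244: gtttCCgctAGagGGCgcgt
The PCDHA5 and PCDHA8 sites are letter for letter the same. These exons are close copies of one another, so which member gained or lost a peak is uncertain.

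In the beta locus, 8 peaks were gained, 1 was lost and 8 CT peaks were shared. Gained peaks lay at the starts of PCDHB2, PCDHB3, PCDHB4, PCDHB6, PCDHB7 and PCDHB14, while shared peaks lay at PCDHB8 to PCDHB13 and at PCDHB15. All 8 gained peaks of the locus overlapped an OE peak, and 6 overlapped H3K4me3 in CT and 8 in KD. Many of the gained and shared sites in this locus end alike, as the 4 shown here do, chosen after the values were seen. The site of the shared peak at PCDHB8 does not. In the order shown, the 4 sites had matrix scores of −7.90, 2.95, 21.3 and 9.21. They matched 5, 6, 7 and 6 of the fixed letters, which largely sets these scores.
PCDHB3, gained, chr5:141100394-141100413: gcgaaCgcatGgtGGCgctg
PCDHB7, gained, chr5:141172567-141172586: caaaaCgcaAGgtGGCgctg
PCDHB9, shared, chr5:141187075-141187094: gaagCCacaAGgtGGCgctg
PCDHB10, shared, chr5:141192300-141192319: gaggCCacacGgtGGCgctg
The gamma locus had 10 gained, 0 lost and 4 shared CT peaks, and all 10 gained peaks lay near a start, from PCDHGB3 and PCDHGA6 to PCDHGC3. None of these 10 held the core, 8 overlapped H3K4me3 in CT and 6 an OE peak. PCDHGA1, the first gene of the array, also had a gained promoter peak. It lay just outside the locus as bounded here and is not among the 10.

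Across gene families set by symbol, the share of genes with a gained promoter peak ranged from 1.20% for olfactory receptors to 45.3% for clustered protocadherins. The proteasome genes followed the protocadherins, with 10 of 50 genes (20%) gaining and 3 (6%) losing a promoter peak, the gaining ones including PSMD1, PSMD11, PSMB3 and PSMA7. Among the gaining genes, PSMC3IP shares the symbol but acts in meiotic recombination. Contactins and neurexins stood at 18.8% and 12.5% of 16 genes, and collagens at 15.9% and 4.55% of 44. These are long genes, with median lengths of 332 and 145 kb, and promoter shares were higher in long genes. All genes of at least 300 kb stood at 16.9% and 11.2%, and those of 100 to 300 kb at 16.6% and 8.21%. Cytosolic ribosomal protein genes stood at 12.8% and 3.49% of 86, with a gained promoter peak at RPL11, RPL4, RPS14 and RPS19 and a lost one at RPL29, RPS3 and RPL23A. Zinc finger genes (9.87% and 4.66% of 537) and solute carriers (11.5% and 5.36% of 373) were near the shares of all genes, as were cytosolic ribosomal protein genes. Olfactory receptor genes had as few gained as lost promoter peaks, 5 and 6 among 416 genes.

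**Figure D3:**
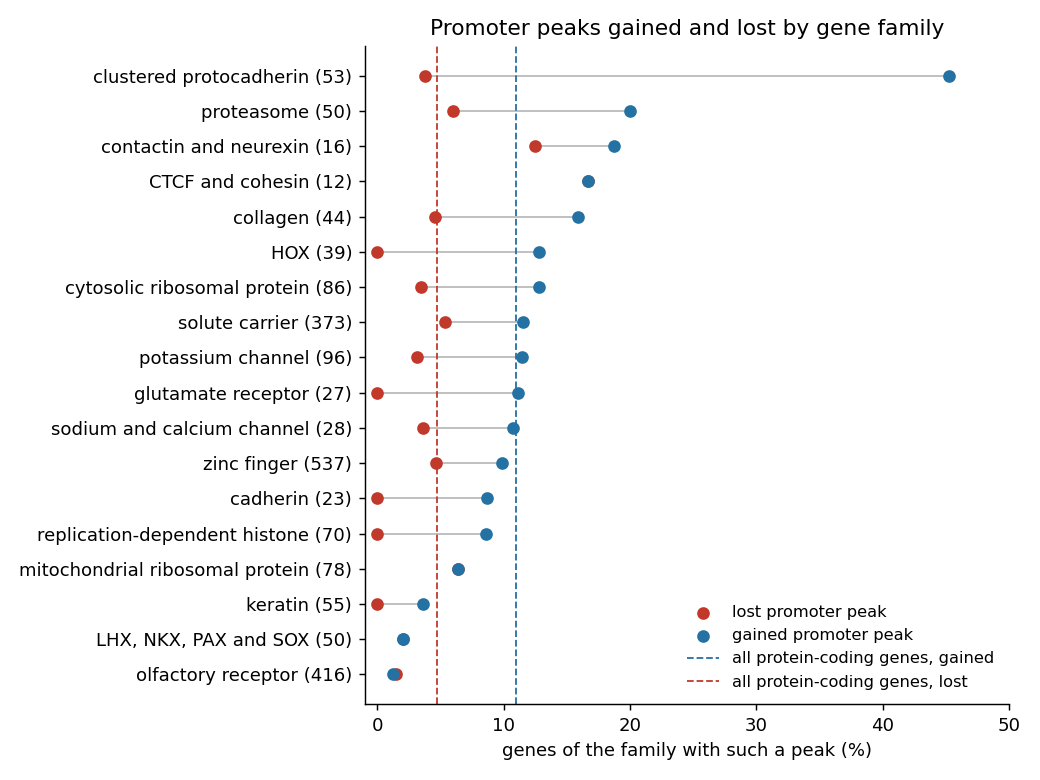
Percent of the genes of each family with a gained (blue) and a lost (red) CTCF peak within 1 kb of a start, with the number of genes in brackets. Dashed lines give all protein-coding genes, 11.0% gained and 4.70% lost, and clustered protocadherins stand apart at 45.3% gained.

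Counted over gene bodies with 10 kb on either side and each peak once, 3 other families of short genes in arrays held more gained than lost peaks, while olfactory receptor genes held 61 gained and 60 lost. All genes under 10 kb, with a peak counted at each gene it lies near, held 1929 gained and 778 lost, so an excess of gained peaks is common to short genes. Keratin genes, which encode intermediate filaments of epithelia, held 14 gained and 1 lost peak. Replication-dependent histone genes held 24 gained and 5 lost, with 2 gained promoter peaks at H4C3 and 1 each at H4C4, H3C4, H4C14, H4C15 and H4C16. H4C14 and H4C15 are near-identical neighbours, so their peaks are uncertain. HOX genes, which pattern the body axis, held 15 gained and 4 lost peaks, and HOXA10, HOXA13, HOXB5, HOXB7 and HOXD11 had a gained promoter peak. By gene, a gained promoter peak was found at 6 of 70 histone genes (8.57%), 5 of 39 HOX genes (12.8%) and 2 of 55 keratin genes (3.64%). The share over all protein-coding genes was 11.0%, so histone and keratin genes lay under it and HOX genes near it. Contactins and neurexins, among the longest genes of the genome, went the other way with 45 gained and 77 lost peaks. Glutamate receptor genes held 53 of each.

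Genes of the CTCF and cohesin machinery showed no common direction. Over their 12 genes, 18 peaks were gained and 13 lost. RAD21, a subunit of the cohesin ring, and STAG1, its binding partner, each had a gained promoter peak. NIPBL, which loads cohesin, and PDS5B, which regulates it, each had a lost one. The CTCF gene itself held 2 gained peaks and 0 lost in its body and flanks and no promoter peak of either kind. CGGBP1 on chromosome 3 held 3 gained, 1 lost and 2 shared peaks, and none lay within 1 kb of its starts.

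In all, 2205 genes had a gained promoter peak, and 1863 of these had no CT peak within 1 kb of a start. A lost promoter peak was found at 938 genes, of which 729 had no KD promoter peak, and 131 genes had both a gained and a lost one. At least 2 gained promoter peaks were found at 117 genes and at least 2 lost ones at 34. The genes with 3 gained promoter peaks were ADGRL2, AKAP1, CROCC, PLCB1, QKI, RUVBL2, TRIM36 and USP7. Of these, QKI encodes an RNA-binding protein that acts in splicing, RUVBL2 an ATPase of chromatin remodelling complexes and USP7 a deubiquitinase. At QKI, RUVBL2 and USP7 no promoter peak was lost. The genes with 3 lost promoter peaks were DENND1A, an exchange factor for Rab35, and FOXP1, a transcription factor that also had 2 gained ones.

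The balance of gained and lost peaks differed between short and long genes. Among 5114 genes under 10 kb, 27% held more gained than lost peaks and 10.2% the reverse. Both shares were higher in longer classes up to 300 kb, with 32.9% and 13.1% at 10 to 30 kb, 39.9% and 19.97% at 30 to 100 kb, and 46.9% and 28.9% at 100 to 300 kb. Among 823 genes of at least 300 kb, 43.6% held more gained and 41.1% more lost peaks, with 3438 gained and 3461 lost peaks in all. The 10 genes with the largest excess of lost peaks were 749 to 2305 kb long. LRP1B on chromosome 2, a receptor of the LDL receptor family, had 15 lost and 2 gained peaks. GPC5 and GPC6, neighbouring glypican genes on chromosome 13, had 22 lost and 9 gained, and 16 lost and 4 gained. CNTNAP2 on chromosome 7, a neurexin-related adhesion protein of axons, had 23 lost and 10 gained. ROBO2, a receptor for Slit guidance cues, had 21 lost and 10 gained, and DLG2, a scaffold of the postsynaptic density, had 25 and 14. NKAIN2, CSMD3, CTNNA3 and CNBD1 completed the list, with 9 to 12 more lost than gained peaks each.

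Of the 10 genes with the largest excess of gained peaks, 8 were overlapping gamma protocadherins (PCDHGA1 to PCDHGA6, PCDHGB1 and PCDHGB2), which share the same peaks. The other two were each over 1 Mb long. TBC1D5 (chr3:17157162-18444817), a regulator of Rab7 in endosome traffic, had 20 gained, 6 lost and 5 shared CT peaks. AUTS2 (chr7:69598296-70793506), linked to neurodevelopment, had 20 gained, 8 lost and 9 shared CT peaks, with 2 of the gained ones at its starts. Per 100 kb, UBE2O on chromosome 17, a ubiquitin-conjugating enzyme, ranked first with 7 gained and 0 lost peaks, ahead of NOTCH2NLR with 8 gained and 2 lost. NOTCH2NLR is one of several near-identical copies of part of NOTCH2, so its counts are uncertain. At the other end, the tyrosine kinase gene FRK on chromosome 6 had 6 lost and 0 gained peaks, and SEC63 on the same chromosome, a part of the protein translocation machinery, had 5 lost and 1 gained. MORC3, SGO2 and WASHC2A had 4 lost and 1 gained each.

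By chromosome, the ratio of gained to lost peaks ranged from 0.879 (0.795 to 0.971) on chromosome 13 to 2.15 (1.89 to 2.44) on chromosome 19, and was above 1 on 21 of 23 chromosomes. Chromosome 19, the most gene-dense, had 786 gained and 366 lost peaks, and 69.5% of its CT peaks were shared. Chromosome 13, poor in genes, had 741 gained and 843 lost peaks, with 39.2% of its CT peaks shared. The order of chromosomes followed their GC content with a Spearman correlation of 0.952 and a Pearson correlation of 0.916 over 23 chromosomes. This is a description, since all points come from the same 2 libraries and GC content and gene density go together. Lost peaks per Mb ranged from 5.00 on chromosome 16 to 9.02 on chromosome 9, and gained peaks per Mb from 5.81 on chromosome 4 to 13.4 on chromosome 19.

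**Figure D4:**
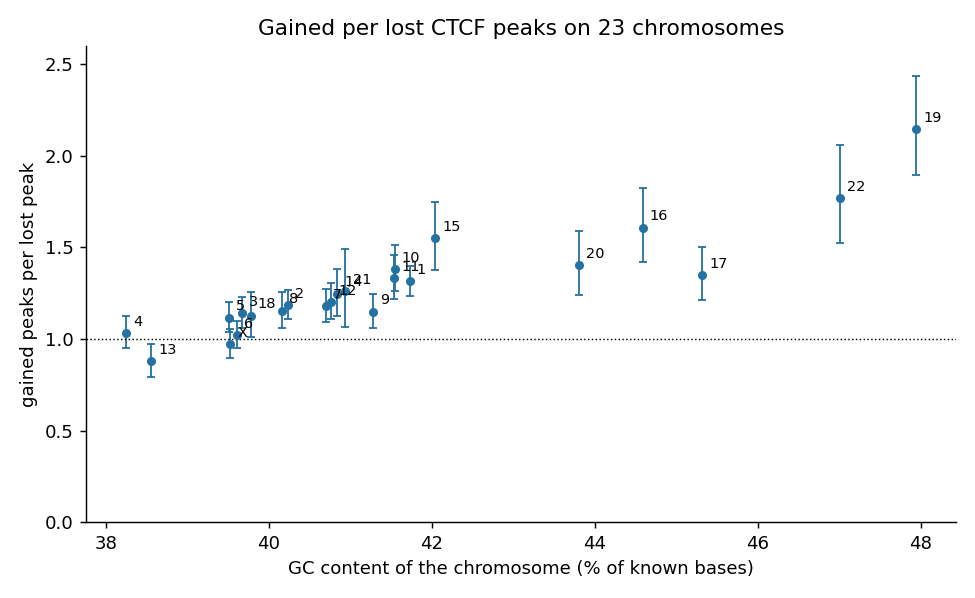
Gained CTCF peaks per lost peak on each of 23 chromosomes against the GC content of the chromosome in %, with 95% counting intervals. The dotted line marks equal numbers, and the ratio lies between 0.879 on chromosome 13 and 2.15 on chromosome 19.

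Windows of 1 Mb showed the same order. In 575 windows of 1 Mb with a GC content under 37%, 4196 peaks were lost and 3049 gained, a ratio of 0.727. The ratio was 1.10 between 37% and 41%, 1.45 between 41% and 46%, 2.06 between 46% and 53%, and 2.78 in the 46 windows above 53%, none of which had a net loss. Of the 2848 windows with at least 5 exclusive peaks, 25.4% held at least 2 times as many gained as lost peaks and 12.8% at least 2 times as many lost as gained. Lost and gained peaks were not in separate regions, since 54.3% of the exclusive neighbours of lost peaks within 100 kb were gained peaks, against 58.1% for gained peaks and 54.7% of all exclusive peaks.

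Under the peaks themselves, the median GC content was 41.1% for gained, 39.1% for lost and 43.5% for shared CT peaks, beside 40.9% for the genome. At least 60% GC was reached by 5.98% of gained and 1.98% of lost peaks. GC content went with whether a CT peak was found again in KD, since 27.6% (26.5 to 28.6) of CT peaks under 35% GC were shared and 83.2% (81.7 to 84.6) of those from 60% GC upward. For KD peaks the same shares were 29.3% and 55.2%. Among peaks with no repeated base the gap in median GC was wider, 42.4% for gained and 37.1% for lost peaks. Whether unequal recovery of GC-rich DNA in both libraries has a part in these shares was not tested.

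**Figure D5:**
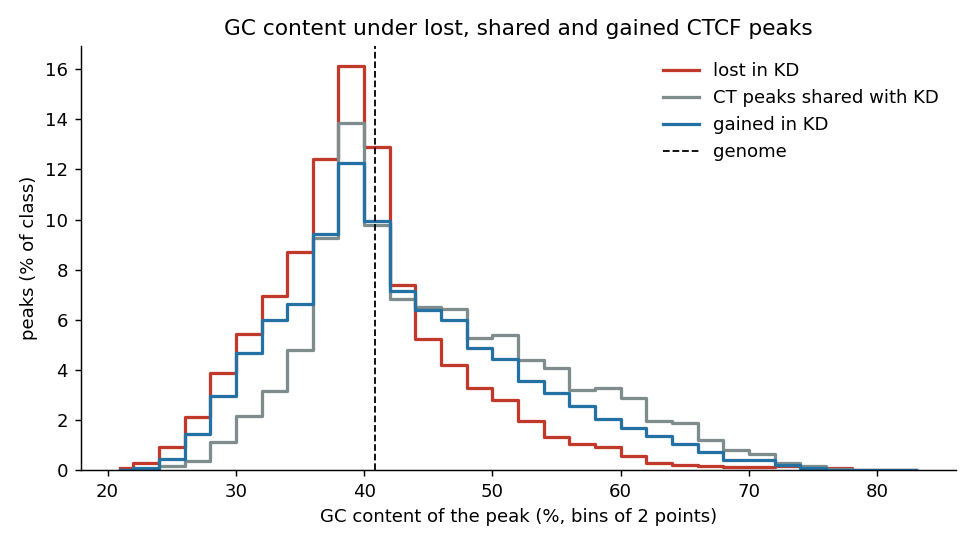
Distribution of GC content in % under lost, shared (CT) and gained CTCF peaks, in bins of 2 points, as % of each class. The dashed line marks the genome at 40.9%, and the medians are 39.1% for lost, 41.1% for gained and 43.5% for shared peaks.

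The CTCF core was found in 21.5% (21.0 to 22.1) of gained and 3.17% (2.94 to 3.42) of lost peaks, beside 35.3% of shared CT peaks. The difference of 18.4 points (17.8 to 18.9) was found in every gene feature, from 15.7 points in intergenic DNA to 19.8 in exons. Of gained peaks with the core, 76.2% had their best-scoring site centred within 50 bp of the peak centre, against 50.5% of such lost peaks. Among shared peaks with the core it was 79.5% in KD and 66.0% in CT, so the KD list was higher at shared peaks as well. CT peaks that held the core were seldom lost, as 91.7% of them were shared, against 39.8% of CT peaks without it. Of KD peaks with the core, 57.7% were shared. Among the few lost peaks with the core, 23% were at promoters, against 17.2% of gained peaks with the core, so the promoter order turned within this class, a difference of −5.86 points (−9.21 to −2.50). Among peaks without the core it was 11.2% of gained and 6.29% of lost peaks.

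Part of the gained and lost peaks were seen in other lists. The OE list, called at a p threshold of 0.005 against 0.0025 for CT and KD, overlapped 41.8% of gained and 6.82% of lost peaks. The list that the authors called for CT on reads mapped to the repeat-masked genome overlapped 9.79% of gained peaks, and that for KD overlapped 0.884% of lost peaks, so 2475 gained peaks lay where CT had a peak by the other mapping. Gained peaks at promoters were found in the repeat-masked CT list in 13.4% of cases. The input list overlapped 1.46% of gained and 0.621% of lost peaks, and most often shared CT peaks, at 7.48%.

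Peaks also differed in how they were grouped. Gained peaks lay in clusters, meaning at least 3 peaks of the same list with neighbouring centres at most 10 kb apart, in 12.1% of cases, against 7.43% of lost peaks and 13.1% of shared CT peaks. Clusters were counted within each list and KD had more peaks, and the difference of 4.72 points was 0.990 points with the widest 20000 peaks of each list and 1.58 points with a distance of 5 kb. KD had 1496 clusters and CT 996, of which 173 and 97 were made of exclusive peaks alone. Much of this clustering was in repeated DNA. Of gained peaks with at least 50% repeated bases, 37.8% were in clusters and 72.5% were intergenic, against 13.2% and 54.6% of such lost peaks. Among peaks with no repeated base, 6.64% of gained and 3.74% of lost peaks were in clusters. Of the 5 clusters with most exclusive peaks in each list, all CT ones and 3 KD ones lay in or next to centromeres, with 9 lost peaks among 15 on chromosome 4 (chr4:51271785-51331129) and 12 gained among 39 on chromosome 7 (chr7:59706762-59865167), all but entirely repeated. In the chromosome 7 cluster 20 of the 39 peaks overlapped input peaks, and in the chromosome 4 cluster 1 of the 15 did. The largest number, 14 gained of 26 peaks, lay on the short arm of chromosome 21 (chr21:8376454-8445806), where 8 of the peaks overlapped input peaks. Next came 13 gained of 16 peaks on chromosome 8 (chr8:85714777-85747678), where 8 overlapped input peaks as well.

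Centromeric windows held the extremes of both directions. The windows with most net gain were chr1:123000001-124000000 (74 gained, 30 lost), chr19:25000001-26000000 (78 and 36), chr19:26000001-27000000 (79 and 42), chr12:35000001-36000000 (65 and 28) and chr11:51000001-52000000 (46 and 16). All their peaks were at least 50% repeated, and none of the windows held a protein-coding gene. Chromosome 17 went the other way. Its 4 windows between chr17:23000001-24000000 and chr17:26000001-27000000 held 149 lost, 13 gained and 30 shared CT peaks. All of these were at least 50% repeated and none held the core, and 0 of the 149 lost peaks overlapped the input list, against 15 of the 30 shared ones. These windows held 25% of all peaks lost on chromosome 17, and without them, a choice made after the values were seen, the ratio of that chromosome was 1.77 in place of 1.35. The remaining window of the 5 with most net loss, chr13:88000001-89000000, held 21 lost and 7 gained peaks, of which 3 and 2 were at least 50% repeated. Copies of such repeats are close to one another in sequence, so positions in these arrays are less certain than elsewhere.

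Repeated bases made up 39.1% of the bases under lost peaks and 18.5% under gained peaks, and the most frequent word differed. The 24-base words shown here are the most frequent in lost peaks and the most frequent in gained peaks. They are printed because they name the kinds of repeat, which were recognised by their known consensus.
LINE-1 word, in 2.98% of lost and 0.431% of gained peaks: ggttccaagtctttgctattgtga
Alpha satellite word, in 1.92% of gained and 1.45% of lost peaks: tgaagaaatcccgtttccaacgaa
The LINE-1 word was thus several times more frequent in lost than in gained peaks. Each word was chosen for its frequency in lost or in gained peaks, which favours that class in the comparison. The alpha satellite word, from the tandem repeat of centromeres, was found in both and was more frequent in shared peaks, at 3.07% of CT and 3.14% of KD ones. Peaks with at least 50% repeated bases were more often lost than gained in every gene feature. Introns held 3472 lost and 1004 gained ones, exons 72 and 47, and promoters 214 and 154. In intergenic DNA 4519 were lost and 3173 gained, and there lost ones were more frequent on 22 of 23 chromosomes. Chromosome 19 was the exception, with 151 lost and 204 gained, and chromosome 17 lay lowest with 185 lost and 34 gained.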

How the data were processed

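CTCF peaks of CT and KD were measured by ChIP-seq with 1 library each. According to the methods and the labels, the authors mapped quality-filtered reads to hg38 with Bowtie2 and called peaks with MACS2. The labels give a p threshold of 0.0025 for both unmasked CTCF lists, and the methods give a higher one. Per the file headers and contents, the deposited lists hold only chromosome, start and end, so peak height and the reads behind a peak are not known from them and the number of peaks sets the precision. Library read totals were not used here. Starts were read as counted from 0.

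Overlaps, gene features (GENCODE release 44, at the peak centre), GC content, words, clusters and motif matches were computed with Python 3.11.15, numpy 2.4.6 and scipy 1.17.1 on hg38, on chromosomes 1 to 22 and X, and were tested on simulated data. A gene's promoter peaks lie within 1 kb of any of its transcript starts. Shares carry exact Clopper-Pearson 95% intervals and differences normal 95% intervals. The matrix was built from the core matches under shared CT peaks with 4 bases on either side.

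Members, lists and gene families were chosen with earlier results of these data known. Named were the genes with the largest net gain or loss (10 each, and 5 each per 100 kb), those with most promoter peaks, the 5 windows of 1 Mb and 5 clusters at each end, the chromosomes at each end, families by symbol, and sequences by matrix score, repeated share or word frequency. The division of the protocadherin loci, their printed sites and the account of chromosome 17 were added after the values were seen. Alternatives changed the overlap rule, the peaks kept, the promoter width, the gene set, the GC window, the clustering distance and the core. The exclusive lists made by the authors were not used here. Some lost promoter peaks and 1 word chosen by the rule for sequences are not reported here.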

Additional observations from a re-analysis of the deposited data

Results flagged for a closer look

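Peaks outside chromosomes 1 to 22 and X were not part of any comparison, and 1286 CT peaks and 1597 KD peaks lay on such sequences, which include chromosome Y, alternate loci and unplaced contigs. They were singled out because they are peaks in data that the comparison did not use.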

How the results depend on the processing

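No result changed direction under an alternative that was run. Of the alternative values 35 stayed within the counting interval of the reported value (for counts, within 1.5 times) and 26 did not. With the widest 20000 peaks of each list, 14030 peaks were gained and 14026 lost, as lists of equal length give nearly equal numbers, 1302 genes had a gained promoter peak, and the gained minus lost differences were −0.738 points for intergenic DNA, 2.89 points for median GC and 0.990 points for clusters, where fewer peaks per list mean fewer clusters. With peaks free of repeated bases, 9417 of 20937 lost and 17373 of 25286 gained peaks remained. A larger share of lost than of gained peaks held a repeated base, so the excess of gained peaks was larger among those that remained. The differences there were 4.49 points for promoters, −0.410 for intergenic DNA with an interval of −1.56 to 0.743, 5.31 for GC, 2.90 for clusters and 19.9 for the core, this last chosen after seeing the data. Promoters of 500 bp gave a difference of 3.94 points with 1416 gaining and 555 losing genes, and promoters of 2000 bp gave 7.13 points with 1583 losing genes, as narrower or wider windows hold fewer or more peaks. Protein-coding genes alone gave 4.12 points. The GC difference was 2.50 points in the central 200 bp, 1.48 in the surrounding 10 kb and 1.67 when peaks found in the other library's repeat-masked list were left out, which gave 16.5 points for the core, also chosen after seeing the data. Cluster differences were 3.87 points without peaks on input peaks, 1.58 with a distance of 5 kb and 7.27 with 20 kb. The core difference was 31.6 points with 1 mismatch and 17.7 in the central 200 bp. Where no reason is given, the cause was not tested. Without read counts or replicates, weak peaks near the calling threshold of either library cannot be set apart from absent ones. No paired analysis was possible because each condition had 1 library.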
